A study of Mus musculus with 8 samples.

Results

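The 42 mouse genes that build cell junctions, set up apical-basal polarity and move ions and water make up the set described here, and 40 of them were tested in late morulae depleted of Rbbp4, Rbbp7 or both. The 40 are the genes whose mean normalized abundance over 8 libraries was at least 10, out of 12565 genes passing the same filter among 19058 in the deposited table. Of the other two, Aqp8, a water channel, was listed at 0 to 3.67 and left out by the filter, and Dsc3 was not analysed here. The members fall into 5 classes by role: 5 genes of adherens junctions and surface adhesion, 6 of desmosomes, 8 of tight junctions, 17 of polarity and the cell cortex, and 4 of ion and water transport. The rule itself takes the genes by name and uses no measured value apart from that filter, although the list was drawn up with earlier results of these data known.

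Embryos were collected 78 h after fertilization from zygotes injected with small interfering RNA (siRNA), and polyadenylated RNA was sequenced from whole embryos. The double knockdown received siRNA against both Rbbp4 and Rbbp7, the Rbbp7 knockdown and the Rbbp4 knockdown received siRNA against 1 of them, and the control received a non-specific siRNA. Each group has 2 libraries, and all 4 groups share the injection, the stage and the collection time. The labels do not give the mouse strain, the number of embryos per library, or whether 2 libraries of one group are separate pools of embryos. The p-values therefore reflect the spread between libraries as sequenced, which may be technical.

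The late morula is the stage at which outer cells of the mouse embryo become the trophectoderm, the first epithelium. Compaction brings cells together through E-cadherin, outer cells form an apical domain with the Par proteins and aPKC, and tight junctions then seal the outer layer. The Na/K-ATPase of the basolateral membrane pumps sodium inward, water follows partly through aquaporins, and the blastocoel cavity fills. Rbbp4 and Rbbp7 are closely related histone-binding proteins found in several chromatin complexes, and the series title names cell proliferation and the histone variant H3.3.

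Among these genes the clearest difference was in Atp1b1, which encodes the beta1 subunit of the Na/K-ATPase. Its abundance was roughly as low in the double knockdown as in the Rbbp7 knockdown, and its libraries with Rbbp7 siRNA lay below every library without it. It was also the single member that passed the test in any of the 9 comparisons made. The desmosome plaque gene Dsp and the polarity gene Amot were likewise lower in all 4 libraries with Rbbp7 siRNA, by smaller amounts that did not pass the test. With Atp1b1 they were among 8 of 40 members (20%) lower in these 4 libraries than in the 4 without, against 3.43% of all genes. In the same libraries 0 members were higher without overlap, against 2.75%. Among genes with a mean of at least 500, 8 of 35 members (22.9%) were lower, against 5.17% of such genes. These counts over 4 and 4 libraries, and the mean of 500, were chosen after the data were seen. For Atp1b1 and Amot both Rbbp4 knockdown libraries also lay below both control libraries. Apart from Atp1b1, 0 of the other 39 members passed the test in any comparison.

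The sequence just upstream of the transcription start is shown for Atp1b1, for Atp1b3, the paralogous subunit gene whose level differed less between groups, and for Dsp, the member with the next smallest p in the average effect of Rbbp7 siRNA. Each is 250 bases from RefSeq on GRCm38.p6, written on the gene's own strand. The Atp1b1 stretch is chr1:164458356-164458605 on the minus strand, the Atp1b3 stretch is chr9:96364432-96364681 on the minus strand, and the Dsp stretch is chr13:38151044-38151293 on the plus strand. Capitals mark matches to the SP and KLF letters GGGCGG, read on both strands, and in Dsp also a match to the TFAP2 letters GCCNNNGGC whose first base is the last base of an SP and KLF match.
Atp1b1: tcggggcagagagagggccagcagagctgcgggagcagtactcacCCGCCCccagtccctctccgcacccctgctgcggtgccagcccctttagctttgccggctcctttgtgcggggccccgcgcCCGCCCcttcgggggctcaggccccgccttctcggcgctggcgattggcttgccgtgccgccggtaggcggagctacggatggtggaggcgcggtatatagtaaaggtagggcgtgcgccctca
Atp1b3: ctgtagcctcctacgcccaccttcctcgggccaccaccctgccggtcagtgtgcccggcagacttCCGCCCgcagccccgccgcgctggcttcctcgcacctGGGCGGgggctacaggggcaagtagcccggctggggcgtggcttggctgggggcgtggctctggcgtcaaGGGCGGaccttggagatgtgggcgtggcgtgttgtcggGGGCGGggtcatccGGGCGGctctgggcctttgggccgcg
Dsp: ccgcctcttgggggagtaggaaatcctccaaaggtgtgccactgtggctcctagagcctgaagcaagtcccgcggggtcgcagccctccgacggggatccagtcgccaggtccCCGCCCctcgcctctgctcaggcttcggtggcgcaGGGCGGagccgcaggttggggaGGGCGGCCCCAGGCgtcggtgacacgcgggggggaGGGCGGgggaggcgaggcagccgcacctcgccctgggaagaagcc
The Atp1b1 stretch held 2 SP and KLF matches, the Atp1b3 stretch 5 and the Dsp stretch 4. GC content was 70.4% for Atp1b1, 73.6% for Atp1b3 and 72.4% for Dsp. RefSeq promoters were found for 34 of the 42 named genes, 51 promoters in all. The SP and KLF letters occurred in 62.7% of those promoters, against 32.7% of all 32841 promoters of the same length, and the TFAP2 letters in 23.5%, against 13.7%. The TEAD letters GGAATG occurred in 7.84%, against 12.6%, and the GATA letters AGATAA in 5.88%, against 9.99%. The 32841 promoters were not matched to the members by expression or GC content, and the 51 include Aqp8, which was not tested. These matches describe letters in a window and show no binding.

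Each target was lower in every library that received siRNA against it, and passed the test in each such group. Rbbp4 had abundances of 348 and 433 in the double knockdown and 402 and 343 in the Rbbp4 knockdown, against 5300 and 4710 in the control. Rbbp7 had 327 and 266 in the double knockdown and 298 and 293 in the Rbbp7 knockdown, against 8399 and 7205 in the control. Library totals of normalized abundance were 11334107 to 12011829, and sequencing depth cannot be read from them. Control replicate 1 stood apart, where 3937 genes were listed at 0, while the others had 2644 to 3237. Mitochondrial genes made up 6.209% of its abundance, against 4.259% to 5.529% in the others, the highest of these being double knockdown replicate 2. Its mean correlation with the other libraries was the lowest, at 0.9572, and that of double knockdown replicate 2 was next at 0.959. Summed abundance over 22 trophectoderm markers was 44800 and 46610 with both siRNAs, 33640 and 38300 with Rbbp7 siRNA alone and 57450 and 53270 with Rbbp4 siRNA alone, against 57650 and 61690 in the control, with 0 of the 22 listed at 0 in any library. Summed abundance over 14 inner cell mass markers was 53400 and 47380, 63740 and 63730, and 57260 and 57410 in the same 3 knockdowns, against 55420 and 59100 in the control, also with 0 markers at 0. Markers of cumulus, oocyte, oviduct, blood and stromal cells each summed to at most 0.00244% of a library, and of 7 sperm markers all but Odf2, which is also a centrosome gene, were listed at 4.59 or lower.

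Because levels of different genes can be compared only per length, abundance was divided by the annotated exon length in kilobases. On that scale, as a mean over 8 libraries, Cldn4, a tight junction claudin, stood highest at 4763, followed by Aqp3, a channel for water and glycerol, at 3693. Cdc42, a GTPase that organises polarity, had 1856, Epcam, a surface adhesion protein, had 1492, and Cdh1, which encodes E-cadherin, had 1440. At the other end Dsg2, a desmosomal cadherin, had 52.4, Tjp3, a tight junction scaffold, had 24.0 and Dsc2, a desmosomal cadherin, had 15.2. Atp1b3 stood at 515 and Atp1b1 at 231. Of these 2 ATPase beta subunit members, the beta3 transcript was the more abundant per length. Unscaled, the members' median abundance was 1467, against 272 over all genes tested, and 35 of 40 reached 500.

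**Figure D1:**
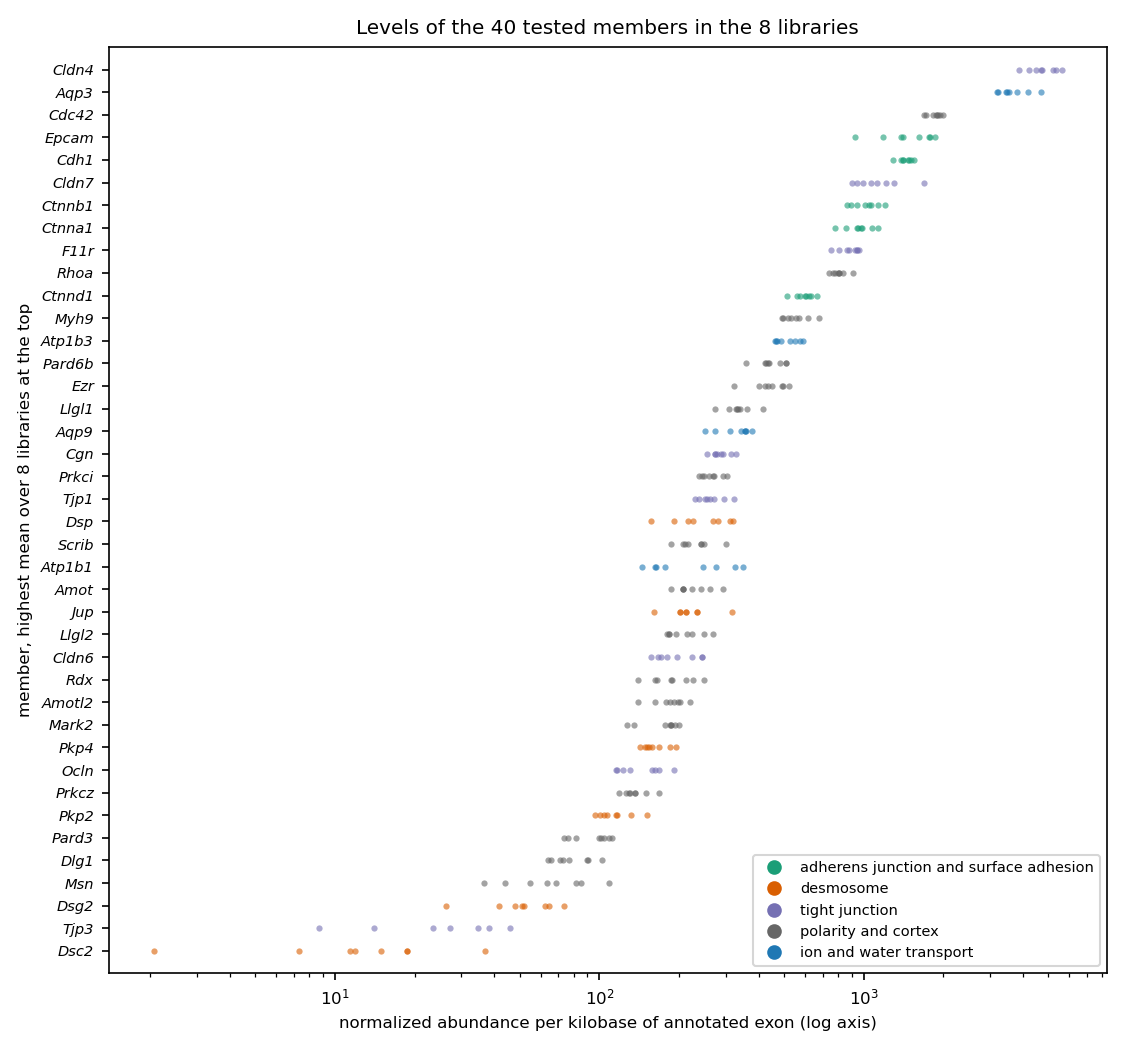
Normalized abundance per kilobase of annotated exon (log axis) of the 40 tested members, ordered by their mean over 8 libraries, with 1 point per library coloured by class. Tjp3 is listed at 0 in control replicate 1 and has no point for that library. Cldn4 and Aqp3 lead, and the desmosomal cadherins Dsg2 and Dsc2 lie at the low end with Tjp3.

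Ion and water transport is the class with the called gene. Atp1b1 (ENSMUSG00000026576, chromosome 1, 164437109 to 164458355, minus strand, GRCm38) stood at 504 and 446 in the double knockdown libraries, at 499 and 544 in those of the Rbbp7 knockdown and at 852 and 762 in those of the Rbbp4 knockdown, against 1000 and 1073 in the control. All 6 knockdown libraries lay below both control libraries, and the 4 with Rbbp7 siRNA lay below the 2 of the Rbbp4 knockdown. It fell in the double knockdown, with a log2 change of -1.13 ± 0.14 against the control (SE, n = 2 each, limma with Benjamini-Hochberg adjusted p = 0.0144). Log2 changes here and elsewhere are of abundance plus 1. The group means were 475 ± 41.0 with both siRNAs, 522 ± 32.2 with Rbbp7 siRNA alone and 807 ± 63.6 with Rbbp4 siRNA alone, against 1037 ± 51.7 in the control (SD, n = 2 each). Over all 4 libraries with Rbbp7 siRNA minus the 4 without, called here the average effect of Rbbp7 siRNA, it fell by 0.88 ± 0.10 (limma, adjusted p = 0.0183). The Rbbp7 knockdown against the control gave -0.99 ± 0.14 (adjusted p = 0.0916) and the Rbbp4 knockdown against the control gave -0.36 ± 0.14 (adjusted p = 0.836), and neither passed. The double knockdown minus the Rbbp7 knockdown was -0.14 with a 95% interval of -0.46 to 0.19, and the interaction, which asks how far the double knockdown departs from adding up both single ones on the log2 scale, was 0.23 with an interval of -0.23 to 0.68. The call in the double knockdown was lost without control replicate 1 (adjusted p = 0.0511), either Rbbp4 knockdown library (0.0511 and 0.0524) or double knockdown replicate 2 (0.0581), with no intensity trend in the variance (0.0721) and with the compared groups fitted alone (0.114). Its log2 change stayed between -1.21 and -1.04 over 18 alternatives. The call in the average effect was lost in 6 of 17 alternatives, with adjusted p up to 0.149. An exon of Nme7, which averaged 125, overlaps Atp1b1 on the opposite strand, and whether counting used strand is not given in the sources used here, so reads of the 2 genes there cannot be told apart.

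Atp1b3 is the other Na/K-ATPase beta subunit among the members. It had 1253 and 1409 with both siRNAs and 1117 and 1099 with Rbbp7 siRNA alone. With Rbbp4 siRNA alone it had 1166 and 1316, against 1367 and 1124 in the control. The double knockdown libraries overlap the control libraries, while both Rbbp7 knockdown libraries lay just below them. Its log2 change in the double knockdown was 0.10, with a 95% interval of -0.22 to 0.42, and its sign turned without control replicate 2. The ratio of Atp1b1 to Atp1b3 abundance in a library stood at 0.402 and 0.317 in the double knockdown libraries, at 0.447 and 0.495 in those of the Rbbp7 knockdown and at 0.730 and 0.579 in those of the Rbbp4 knockdown, against 0.732 and 0.955 in the control. All 4 ratios with Rbbp7 siRNA lay below all 4 without it. Atp1b2, a further beta subunit gene from the wider list described below, was at low abundance. It had 58.6 and 55.9 with both siRNAs and 9.84 and 21.6 with Rbbp7 siRNA alone. With Rbbp4 siRNA alone it had 43.1 and 15.6, against 9.89 and 19.2 in the control. Both double knockdown libraries of Atp1b2 lay above both control libraries. It did not pass the test in any comparison and was named after its values were seen.

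The aquaporins lay on the other side of 0. Aqp3 stood at 8572 and 6490 in the double knockdown libraries, at 7660 and 6304 in those of the Rbbp7 knockdown and at 5820 and 6951 in those of the Rbbp4 knockdown, against 5888 and 6354 in the control. Aqp9, a channel for water and small solutes, had 1469 and 1560 with both siRNAs, 1468 and 1132 with Rbbp7 siRNA alone and 1427 and 1492 with Rbbp4 siRNA alone, against 1287 and 1042 in the control. Both double knockdown libraries were above both control libraries for each gene. The log2 changes in the double knockdown were 0.29 ± 0.16 for Aqp3 (adjusted p = 0.404) and 0.39 ± 0.16 for Aqp9 (adjusted p = 0.255), and neither passed.

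**Figure D2:**
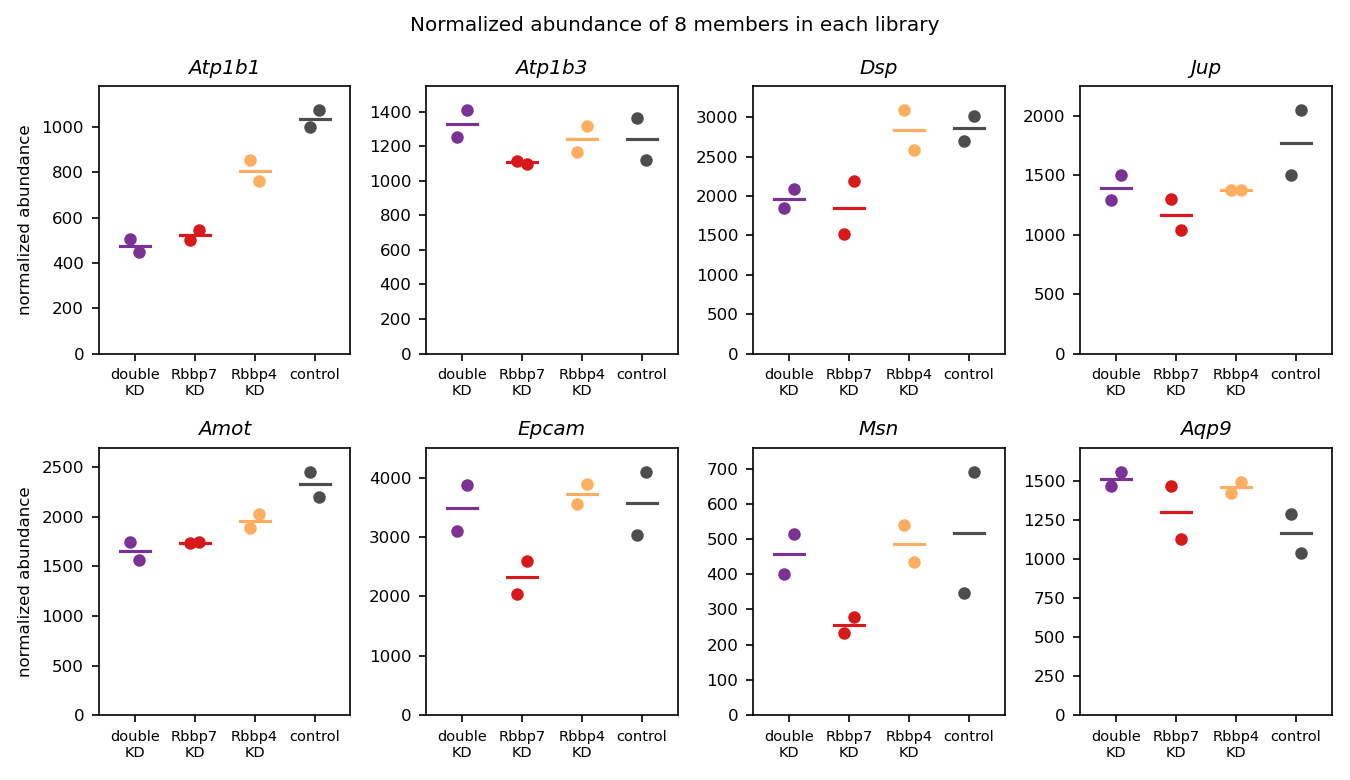
Normalized abundance of 8 members in each library, 1 panel per gene with its own axis starting at 0, points for the 2 libraries of each group and a bar at the group mean. Atp1b1 is at 446 to 544 in the 4 libraries with Rbbp7 siRNA and at 762 to 1073 in the 4 without, while Atp1b3 overlaps between the double knockdown and the control.

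Desmosomes anchor intermediate filaments at cell contacts, and 0 of the 6 desmosome members passed in any comparison. Dsp, the plaque protein that binds keratin filaments (ENSMUSG00000054889, chromosome 13, 38151294 to 38198577, plus strand), stood at 1844 and 2085 in the double knockdown libraries, at 1514 and 2192 in those of the Rbbp7 knockdown and at 3089 and 2590 in those of the Rbbp4 knockdown, against 2703 and 3016 in the control. All 4 libraries with Rbbp7 siRNA lay below all 4 without it. Its average effect of Rbbp7 siRNA was -0.59 ± 0.13 (limma, adjusted p = 0.132), and the Rbbp4 knockdown against the control gave -0.01 ± 0.18. Jup, plakoglobin, which links desmosomal cadherins to Dsp, had 1294 and 1501 with both siRNAs, 1300 and 1040 with Rbbp7 siRNA alone and 1373 and 1373 with Rbbp4 siRNA alone, against 1505 and 2048 in the control. All 6 knockdown libraries lay below both control libraries, and the Rbbp7 knockdown gave -0.59 ± 0.17 (adjusted p = 0.308).

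Dsg2, the cadherin desmoglein 2, stood at 217 and 345 in the double knockdown libraries, at 423 and 534 in those of the Rbbp7 knockdown and at 514 and 395 in those of the Rbbp4 knockdown, against 428 and 607 in the control. The double knockdown libraries lay below every other library, with a log2 change against the control of -0.89 ± 0.27 (adjusted p = 0.140). Dsc2, the cadherin desmocollin 2, had 62.9 and 194 with both siRNAs, 10.9 and 38.7 with Rbbp7 siRNA alone and 98.6 and 98.4 with Rbbp4 siRNA alone, against 60.3 and 78.8 in the control. Both Rbbp7 knockdown libraries lay below the other 6, and the double knockdown libraries overlap the control. The highest group mean of Dsc2, in the double knockdown, was 5.18 times the lowest, in the Rbbp7 knockdown, the widest such ratio of the 40 members, at low abundance. Pkp2 and Pkp4, plakophilin and a related armadillo protein, had smallest p-values of 0.155 and 0.324 over the 3 comparisons against the control.

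Adherens junctions hold compacted cells together, and 0 of the 5 members passed. Ctnna1, alpha-catenin, which ties the cadherin complex to actin, had 4991 and 5487 with both siRNAs, 6354 and 6088 with Rbbp7 siRNA alone and 6082 and 6268 with Rbbp4 siRNA alone, against 7289 and 6929 in the control. All 6 knockdown libraries lay below both control libraries, and the double knockdown was lowest, at -0.44 ± 0.10 (adjusted p = 0.0857). Cdh1 stood at 5921 and 6465 in the double knockdown libraries, at 6326 and 6463 in those of the Rbbp7 knockdown and at 6736 and 6782 in those of the Rbbp4 knockdown, against 6917 and 7086 in the control. These are small differences, since the highest group mean of Cdh1 was 1.13 times the lowest, and the 4 libraries with Rbbp7 siRNA again lay below the 4 without.

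Epcam had 3100 and 3879 with both siRNAs, 2035 and 2603 with Rbbp7 siRNA alone and 3555 and 3895 with Rbbp4 siRNA alone, against 3034 and 4101 in the control. The Rbbp7 knockdown libraries lay below the other 6, with -0.62 ± 0.18 against the control (adjusted p = 0.311), and the double knockdown overlaps the control. Ctnnd1, p120-catenin, which holds cadherin at the membrane, stood at 3765 and 4101 in the double knockdown libraries, at 4212 and 4407 in those of the Rbbp7 knockdown and at 4541 and 4617 in those of the Rbbp4 knockdown, against 4409 and 4892 in the control. Its 4 libraries with Rbbp7 siRNA lay below the 4 without it, the closest pair being 4407 and 4409. Ctnnb1, beta-catenin, went the other way and had 5879 and 5551 with both siRNAs, 5254 and 6231 with Rbbp7 siRNA alone and 4505 and 5434 with Rbbp4 siRNA alone, against 4633 and 4909 in the control. Its smallest p over the 3 comparisons against the control was 0.0753 before adjustment. Ctnnb1 has an exon overlap with Ulk4 on the opposite strand, at a mean of 58.2.

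Tight junctions seal the outer layer, and 0 of the 8 members passed. Ocln, occludin, stood at 811 and 684 in the double knockdown libraries, at 665 and 517 in those of the Rbbp7 knockdown and at 708 and 493 in those of the Rbbp4 knockdown, against 550 and 489 in the control. The double knockdown libraries lay above both control libraries, at 0.52 ± 0.21 (adjusted p = 0.244). Cldn7 had 2070 and 2190 with both siRNAs, 1763 and 1935 with Rbbp7 siRNA alone and 2369 and 2535 with Rbbp4 siRNA alone, against 1839 and 3304 in the control. The control libraries alone span the values of the other groups apart from Rbbp7 knockdown replicate 1, so Cldn7 does not separate from the control. Tjp3 stood at 129 and 32.2 in the double knockdown libraries, at 87.1 and 52.2 in those of the Rbbp7 knockdown and at 101 and 142 in those of the Rbbp4 knockdown, against 0 and 170 in the control. It is given no fold, as it is listed at 0 in control replicate 1 and above every other library in control replicate 2, and of all alternatives run, only leaving out control replicate 2 gave it a call, higher against the control. The other 5, Cldn4 and Cldn6 of the claudins, the scaffold Tjp1 (ZO-1), the adhesion molecule F11r (JAM-A) and the adaptor Cgn, had smallest p-values of 0.128 to 0.815 before adjustment. Tjp3 overlaps an exon of Apba3 on the opposite strand, which averaged 990.

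Polarity and cortex genes form the largest class, with 17 members and 0 passing. Amot, angiomotin, which acts in Hippo signalling at junctions, had 1747 and 1567 with both siRNAs, 1737 and 1745 with Rbbp7 siRNA alone and 1884 and 2034 with Rbbp4 siRNA alone, against 2456 and 2201 in the control. All 6 knockdown libraries lay below both control libraries, and the 4 with Rbbp7 siRNA lay below the 2 of the Rbbp4 knockdown. The double knockdown against the control gave -0.49 ± 0.12 (adjusted p = 0.0904). Pard6b, a Par-complex scaffold of the apical domain, stood at 1437 and 1214 in the double knockdown libraries, at 1451 and 1482 in those of the Rbbp7 knockdown and at 1483 and 1725 in those of the Rbbp4 knockdown, against 1635 and 1725 in the control. Its 4 libraries with Rbbp7 siRNA lay just below the 4 without, with -0.24 ± 0.09 as the average effect (adjusted p = 0.344).

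Msn, moesin, which links actin to the membrane, had 402 and 514 with both siRNAs, 232 and 279 with Rbbp7 siRNA alone and 539 and 435 with Rbbp4 siRNA alone, against 346 and 691 in the control. The Rbbp7 knockdown libraries lay below the other 6, at -0.94 ± 0.30 against the control (adjusted p = 0.363). The related Ezr, ezrin, stood at 1324 and 1610 in the double knockdown libraries, at 1061 and 1387 in those of the Rbbp7 knockdown and at 1720 and 1633 in those of the Rbbp4 knockdown, against 1423 and 1484 in the control. Both Rbbp7 knockdown libraries of Ezr lay below both control libraries. Rhoa, a GTPase of actomyosin, had 5730 and 5520 with both siRNAs, 6000 and 5816 with Rbbp7 siRNA alone and 6066 and 6236 with Rbbp4 siRNA alone, against 6838 and 6037 in the control. Myh9, nonmuscle myosin IIA heavy chain, stood at 6851 and 6422 in the double knockdown libraries, at 6368 and 6709 in those of the Rbbp7 knockdown and at 7931 and 7370 in those of the Rbbp4 knockdown, against 7149 and 8723 in the control. Both Rhoa and Myh9 were lower in the 4 libraries with Rbbp7 siRNA than in the 4 without. Dlg1, a lateral scaffold, had 822 and 1098 with both siRNAs, 765 and 963 with Rbbp7 siRNA alone and 970 and 780 with Rbbp4 siRNA alone, against 704 and 685 in the control, so all 6 knockdown libraries were above both control libraries. The remaining 10 were Prkci and Prkcz (atypical protein kinase C), the apical scaffold Pard3, the basolateral genes Scrib, Llgl1, Llgl2 and Mark2, the angiomotin relative Amotl2, Rdx (radixin) and Cdc42, and they had smallest p-values of 0.0667 to 0.730 before adjustment. Llgl1 overlaps an exon of Flii on the opposite strand, at a mean of 1847.

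**Figure D3:**
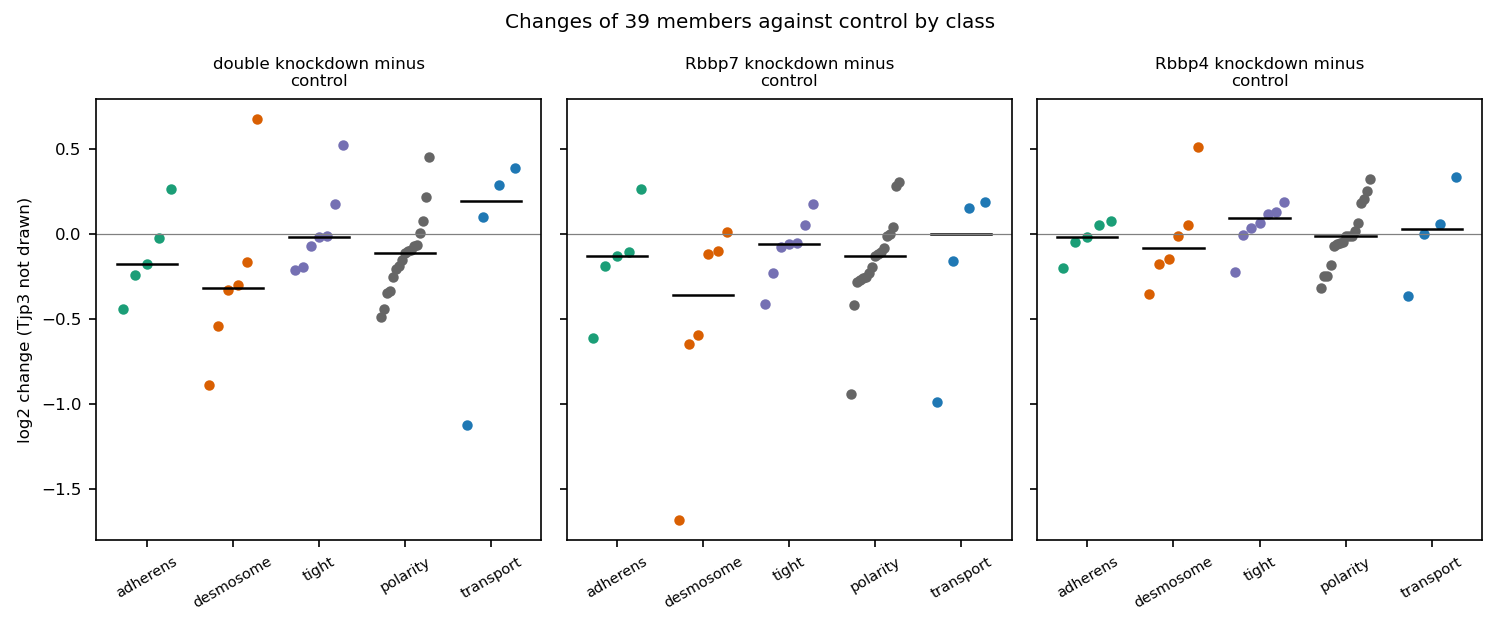
Log2 change of 39 members against the control in each knockdown, by class, with 1 point per gene and a bar at the class median. Tjp3 has no point since it is listed at 0 in control replicate 1, but it is counted in the tight junction median. The desmosome medians are the lowest of the class medians in the double knockdown (-0.32) and in the Rbbp7 knockdown (-0.36).

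The members were next read together against all genes, with limma and Benjamini-Hochberg adjustment. In the double knockdown 1 of 40 members was called, against 1.15% of all 12565 genes, and 1 of 40 in the average effect of Rbbp7 siRNA, against 0.0955%, and in both it was Atp1b1. In the Rbbp7 knockdown 0 of 40 were called, against 0.0239%, and in the Rbbp4 knockdown 0 of 40, also against 0.0239%. The average effect of Rbbp4 siRNA called 0 of 40, against 0.47%.

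An unadjusted p below 0.05 is the looser rule. By it 6 members were lower and 3 higher in the double knockdown, against 8.47% and 8.85% of all genes. In the Rbbp7 knockdown 7 members were lower and 0 higher, against 5.36% and 4.19%. The Rbbp4 knockdown had 1 lower and 0 higher, against 2.85% and 3.01%. For the average effect of Rbbp7 siRNA 9 members were lower and 1 higher, against 6.8% and 5.92%, and for that of Rbbp4 siRNA 3 were lower and 4 higher, against 6.35% and 7.82%.

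Comparisons between knockdown groups also called 0 members each by the adjusted rule. The double minus the Rbbp4 knockdown called 0.0159% of all genes, the double minus the Rbbp7 knockdown 0.358%, the Rbbp7 minus the Rbbp4 knockdown 0.0796% and the interaction 0.00796%. By the unadjusted rule, 5 members were lower and 0 higher in the double minus the Rbbp4 knockdown, against 9.57% of all genes in either direction. In the double minus the Rbbp7 knockdown 3 were lower and 4 higher, against 15%. The Rbbp7 minus the Rbbp4 knockdown had 7 lower and 0 higher, against 9.3%, and the interaction 0 lower and 1 higher, Jup, against 6.49%.

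The median log2 change of the members was -0.11 in the double knockdown and -0.12 in the Rbbp7 knockdown, against -0.00056 and 0.0095 over all genes, and it was -0.0098 in the Rbbp4 knockdown, against 0.0049. Negative changes made up 28 of 40 members in the double knockdown, against 50% of all genes, 30 of 40 in the Rbbp7 knockdown, against 48.6%, and 22 of 40 in the Rbbp4 knockdown, against 49.1%. All 3 comparisons share the 2 control libraries. The lowest of the 4 group means was the double knockdown's for 17 members, against 30.1% of all genes, and the Rbbp7 knockdown's for 17, against 24.4%. It was the Rbbp4 knockdown's for 1 member, against 19.6%, and the control's for 5, against 25.9%. The highest group mean was the control's for 20 members, against 25.8%.

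Counted by whole groups, 15 of 40 members (37.5%) had both double knockdown libraries below both control libraries, against 22.2% of all genes, and 19 (47.5%) in the Rbbp7 knockdown, against 19.7%. In the Rbbp4 knockdown the count was 6 (15%), against 17.4%. For higher values it was 6 (15%) in the double knockdown against 21.9%, 3 (7.5%) in the Rbbp7 knockdown against 19.9%, and 7 (17.5%) in the Rbbp4 knockdown against 18%. Over the 4 libraries with Rbbp7 siRNA and the 4 without, 8 members (20%) were lower without overlap, against 3.43% of all genes, and 0 were higher, against 2.75%. The 8 were Cdh1, Ctnnd1, Dsp, Pard6b, Amot, Rhoa, Myh9 and Atp1b1. Among genes with a mean of at least 500 the share was 8 of 35 members (22.9%), against 5.17% of all such genes. The count over these 4 and 4 libraries, and the mean of 500, were chosen after the data were seen. Without control replicate 1 the count was 10 of 40, against 5.35% of all genes; leaving out a library can only keep or raise either number. The 4 libraries with Rbbp4 siRNA against the 4 without gave 0 lower, against 3.58%, and 1 higher, Cgn, against 3.5%. Over the same libraries, summed trophectoderm marker abundance was lower in all 4 with Rbbp7 siRNA than in the 4 without. Of that sum, Lrp2 alone gave 21859 of 57650 in control replicate 1 and 10437 of 33640 in Rbbp7 knockdown replicate 1. Of 21 trophectoderm markers tested, 18 had a negative average effect of Rbbp7 siRNA and 3 a positive one. Over all genes 49.5% were negative. The part of the trophectoderm markers in the member counts above was not tested. In whole-embryo RNA, fewer cells of a type and less RNA per cell cannot be told apart.

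**Figure D4:**
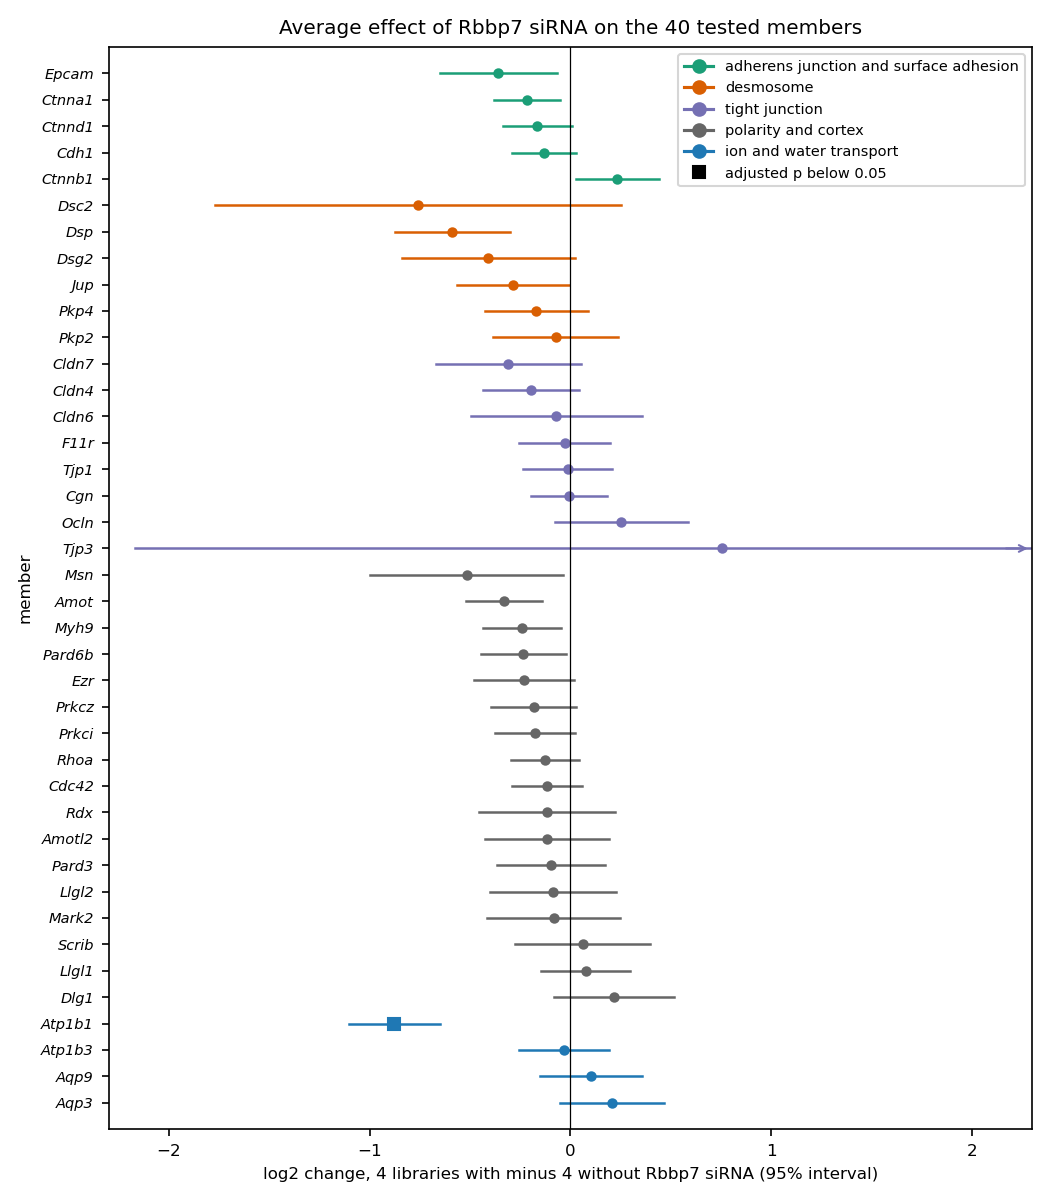
Average effect of Rbbp7 siRNA on each of the 40 tested members (4 libraries with minus 4 without, log2 scale), with 95% intervals, coloured by class. Atp1b1, at -0.88, is the single member drawn as passing the test, and 32 of 40 estimates are below 0.

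A wider list of 149 other junction, polarity and transport genes had 118 in the table and 87 passing the filter. Of these 87, limma called 0 in any of the 9 comparisons, and with an unadjusted p below 0.05 there were 9 lower and 6 higher in the double knockdown, against 8.47% and 8.85% of all genes. The Rbbp7 knockdown had 7 lower and 3 higher, against 5.36% and 4.19%, and the Rbbp4 knockdown had 3 lower and 2 higher, against 2.85% and 3.01%. Their median log2 change was -0.06 in the double knockdown with 51 of 87 negative, -0.12 in the Rbbp7 knockdown with 58 negative, and -0.02 in the Rbbp4 knockdown with 49 negative. In the average effect of Rbbp7 siRNA it was -0.04 with 48 negative (55.2%), against 32 of 40 for the members and 49.5% of all genes. By the unadjusted rule 7 of the 87 were lower and 3 higher in that effect, against 6.8% and 5.92% of all genes. Overlap of libraries was not counted for these 87 genes. The smallest adjusted p among them, in any of the 9 comparisons, was for Cdh3, placental cadherin, with 1.27 ± 0.25 in the double knockdown against the control (limma, adjusted p = 0.0530). It was named after its values were seen.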

How the data were processed

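The deposited values are a signal: the authors' DESeq2-normalized abundance of each Ensembl gene. The submitters' processing notes list Trimmomatic, HISAT2, featureCounts, DESeq2 and GRCm38. Versions, settings and strand use: not given in the sources used here. Whole reads could not be recovered from the values, so no count model was fitted and no counting interval is given. Values were taken as log2(value + 1), which understates changes of low genes.

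Genes averaging at least 10 over the 8 libraries (12565) were fitted together with limma 3.58.1 in R 4.3.3, with 1 mean per group, an intensity trend in the variance prior, and 4 residual plus 5.18 prior degrees of freedom. All tests were two-sided, with p-values adjusted by the Benjamini-Hochberg method within each of 9 comparisons, and called at an adjusted p below 0.05. Errors after log2 changes are standard errors of the fit. Coordinates and exon lengths came from GENCODE on GRCm38, and 18942 of 19058 identifiers matched a symbol. Members, wider list and marker lists were chosen with earlier results of these data known. Per-library values were given for members called in any comparison and for the 3 members per class with the smallest p against the control. Ctnnb1, Cdh1, Ezr, Rhoa, Myh9 and Dlg1 were added after their values were seen. Values of Atp1b3 and Dsc2, and of Atp1b2 from the wider list, were also given outside that rule. The fit was tested on simulated data.

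Alternatives were other pseudocounts, filters, TMM and quantile scaling, no intensity trend, group weights, only the compared groups, a replicate block and each library left out. Replicate numbers come from the titles; they were not taken as pairs, since same-numbered libraries' deviations correlated at -0.0221 to 0.0510.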

Additional observations from a re-analysis of the deposited data

How the results depend on the processing

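Depth is unknown, each group has 2 libraries, and genes at low abundance such as Dsc2 and Tjp3 have the widest errors. The number of members called in the double knockdown was 1, became 0 with no intensity trend and 0 with only the compared groups fitted, and was 0 to 2 over left-out libraries. For the average effect of Rbbp7 siRNA it was 1, became 0 with no intensity trend, and was 0 to 1 over left-out libraries. In the Rbbp7 knockdown, the Rbbp4 knockdown and the average effect of Rbbp4 siRNA it was 0, and 0 to 1 over left-out libraries, the 1 being Tjp3 without control replicate 2. The cause was not tested.

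Atp1b1 in the double knockdown passed in 12 of 18 alternatives, with adjusted p from 0.0125 to 0.114 (the highest with only the compared groups) and 0.0721 with no intensity trend. In the average effect of Rbbp7 siRNA it passed in 11 of 17, with log2 changes of -0.92 to -0.83 and adjusted p from 0.0139 to 0.149. It did not pass without control replicate 1 (0.0686), either Rbbp4 knockdown library (0.149 and 0.0740), either Rbbp7 knockdown library (0.0705 and 0.111) or with no intensity trend (0.101). With the replicate block its adjusted p was 0.0250 in the double knockdown and 0.0433 in the average effect, and 1 member was called in each.

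The values below are those of the members chosen by the naming rule and the members' median; other members turned sign too. Under quantile normalization the sign turned for the members' median in the Rbbp4 knockdown (0.0194), for Epcam in the double knockdown (0.0677), and for Dsp (0.0261) and Cldn7 (0.0192) in the Rbbp4 knockdown. Over left-out libraries the following turned sign, and of these only Tjp3 passed the test in any. In the double knockdown Cldn7 spanned -0.63 to 0.21, Epcam -0.24 to 0.19, Msn -0.60 to 0.39 and Tjp3 -1.38 to 6.04. In the Rbbp7 knockdown Cldn7 spanned -0.84 to 0.0064, Dsg2 -0.35 to 0.15, Aqp9 -0.0327 to 0.34, Ocln -0.0037 to 0.36 and Tjp3 -1.32 to 6.10. In the Rbbp4 knockdown the members' median spanned -0.0626 to 0.06, Aqp3 -0.0716 to 0.19, Cldn7 -0.43 to 0.41, Ctnnd1 -0.0954 to 0.0545, Dsg2 -0.43 to 0.0753, Dsp -0.14 to 0.11, Epcam -0.14 to 0.29, Msn -0.51 to 0.49, Ocln -0.0735 to 0.45, Pard6b -0.18 to 0.0393 and Tjp3 -0.51 to 6.91. In the average effect of Rbbp7 siRNA Tjp3 spanned -1.10 to 2.61. Over all 40 members, in the average effect of Rbbp7 siRNA 32 were negative, and 30 under quantile normalization and 27 without control replicate 1, where Pkp2, Tjp1, Cldn6, F11r, Pard3 and Atp1b3 turned besides Tjp3. In the double knockdown 28 were negative, and 26 under quantile normalization and 25 without control replicate 2.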
